A study of Mus musculus with 6 samples.

Results

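The comparison described here set a mouse endothelial line labelled as expressing both VE-cadherin and N-cadherin (VE+N) against one labelled as expressing VE-cadherin (VE). Its members are 4 of the 6 arrays of the study, the 2 arrays titled with each of these lines, and no measured value was used to choose them. The remaining 2 arrays come from a line labelled as expressing N-cadherin (N), which is given below as context and shares in the estimate of the spread. All 3 lines derive from embryonic stem cells, and each cadherin state is represented by 1 line. How each line came to express its cadherins is not given in the sources used here. Cells of every line were seeded at 50000 per square centimetre in medium with 20% serum and kept for 72 h. The confluence time recorded for every array was 24 h. Cells were then starved of serum for 18 to 20 h in medium with 1% albumin. Total RNA, 150 ng for each array, was hybridised to Affymetrix Mouse Gene 1.0 ST arrays, which carry probes along the whole transcript.

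VE-cadherin, encoded by Cdh5, is the adhesion protein of endothelial adherens junctions. It binds beta-catenin, p120 and plakoglobin, and it is known for restraining growth factor signalling and division in confluent endothelium. N-cadherin, encoded by Cdh2, is the cadherin of neurons and mesenchymal cells. Endothelial cells hold it too, largely outside their junctions, where it takes part in contact with pericytes, and in other cells it associates with fibroblast growth factor receptors.

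Arrays carry no read depth, so precision is set by how many there are. The SD of the difference between 2 arrays, over 19936 genes, was 0.196 within the VE line, 0.244 within the VE+N line and between 0.399 and 0.438 across the lines. Titles call the replicates biological and the design text speaks of separate RNA extractions, and whether each extract had its own culture is not stated. What the p-values hold against a difference is thus the spread between extracts, and a difference of the added cadherin cannot be told apart from any other difference between these lines. In bulk RNA, fewer cells of a kind and less RNA per cell cannot be told apart either.

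Endothelial identity held in both lines: of 42 endothelial markers 39 lay above the median gene in the VE line and 38 in the VE+N line. Pecam1, an adhesion molecule of endothelial junctions, measured 11.25 and 11.31 on the VE arrays and 11.41 and 11.56 on the VE+N arrays, and the VEGF receptor gene Kdr measured 11.14 and 11.25 on the VE arrays and 11.55 and 11.8 on the VE+N arrays (both chosen after their values were seen). These levels place them among the brightest genes of either line.

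The cadherin genes were read first, as a check of the labels. The log2 signal of Cdh2 was 5.8 and 5.93 on the VE arrays and 6.69 and 6.7 on the VE+N arrays, against 7.66 and 7.67 on the N arrays. The VE+N arrays lay above both VE arrays and below both N arrays, and the rise over VE was 0.83 ± 0.0992 log2 units (SE; limma with Benjamini-Hochberg adjustment over all genes, adjusted p = 0.00155). The lower Cdh2 signal in VE followed the labels, which do not rank VE+N against N. Cdh5 measured 7.05 and 6.83 on the VE arrays and 7.05 and 7.16 on the VE+N arrays and 7.26 and 7.3 on the N arrays. Its values overlapped between VE and VE+N, and the difference of 0.16 ± 0.113 did not pass (adjusted p = 0.462). The value was 0.27 without VE replicate 1 and 0.05 without VE replicate 2. Cdh5 was also no lower on the N arrays, so this probe set did not separate the lines by their VE-cadherin label, and every direction below rests on the labels as given.

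The VE+N line differed from the VE line mainly by losses. Of 19936 genes, 2020 were called at adjusted p below 0.05 (10.1% of those tested), 855 higher (4.29%) and 1165 lower (5.84%) in VE+N. The balance was sharper among large changes: 502 genes were called and differed over 2-fold (2.52%), of which 109 were higher (0.547%) and 393 lower (1.97%). No array of one line overlapped the other in any of these 502, which is no separate support, as the genes were picked by these same values. Of the lower genes 80 differed over 4-fold, 28 over 8-fold and 13 over 16-fold, against 14, 4 and 1 of the higher genes. Leaving out VE replicate 1 gave 975 calls in all, leaving out VE replicate 2 gave 966, and leaving out VE+N replicate 2 gave 1219. Centring each array on its median made 60.8% of all called genes higher instead of 42.3%, and 29.7% of those over 2-fold instead of 21.7%, so the split among small changes rests on the scaling.

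**Figure D1:**
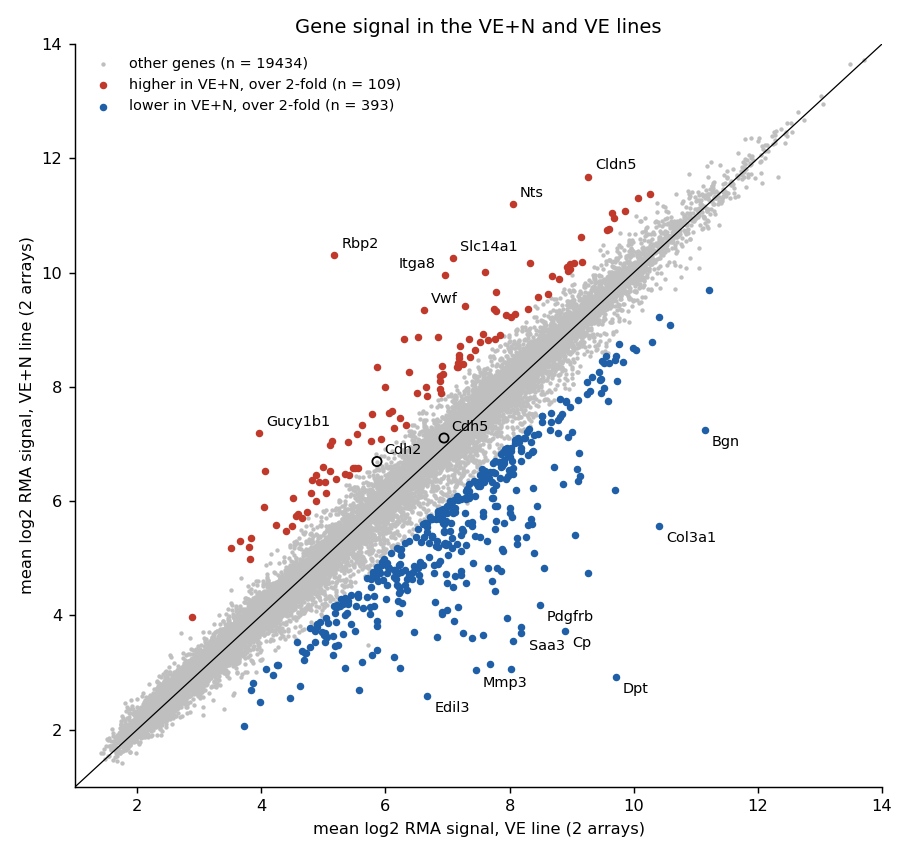
Mean log2 signal of each gene in the VE line (horizontal axis) and the VE+N line (vertical axis), 2 arrays each, with the line of equal signal. Red points are the 109 genes called higher and blue points the 393 called lower over 2-fold. Open circles mark Cdh2 and Cdh5. Blue points reach much farther from the diagonal than red ones, down to Dpt at a log2 difference of −6.78.

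The largest rise was in Rbp2, which encodes a cellular retinol-binding protein. It measured 5.14 and 5.22 on the VE arrays and 10.31 and 10.31 on the VE+N arrays, and 4.78 and 4.94 on the N arrays. Only the VE+N arrays were high, by 5.13 ± 0.104 log2 units or 35.1-fold (adjusted p = 4.09e-07). The genes of both subunits of the nitric oxide receptor, soluble guanylate cyclase, which adjoin on chromosome 3, rose with a like pattern. The beta subunit gene Gucy1b1 measured 3.9 and 4.04 on the VE arrays and 7.16 and 7.24 on the VE+N arrays and the alpha subunit gene Gucy1a1 4.1 and 4.02 on the VE arrays and 6.49 and 6.57 on the VE+N arrays. Their VE and N arrays lay together near 4, and the rises were 3.23 ± 0.129 (adjusted p = 8.43e-06) and 2.47 ± 0.102 (adjusted p = 9.52e-06).

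Several other large rises were in genes of vessel biology. Von Willebrand factor (Vwf), the platelet-binding glycoprotein of endothelial storage granules, measured 6.56 and 6.66 on the VE arrays and 9.22 and 9.46 on the VE+N arrays. All 4 arrays of these lines exceeded the N arrays, at 5.24 and 5.18, and the rise was 2.73 ± 0.116 (adjusted p = 1.04e-05). Claudin-5 (Cldn5), the main tight junction claudin of endothelium, measured 9.26 and 9.26 on the VE arrays and 11.55 and 11.81 on the VE+N arrays, in the same order of lines, with a rise of 2.42 ± 0.125 (adjusted p = 2.93e-05). Gas6, a vitamin K-dependent ligand of the TAM receptors, rose by 2.35 ± 0.118 from 6.6 and 6.46 to 8.79 and 8.96. The water channel gene Aqp1 rose by 2.12 ± 0.157 and the urea transporter gene Slc14a1 by 3.17 ± 0.145. Nts, the precursor of the peptide neurotensin, measured 8.17 and 7.93 on the VE arrays and 11.21 and 11.18 on the VE+N arrays, with the N arrays between them at 9.36 and 9.41. The integrin subunit gene Itga8 rose by 2.98 ± 0.172, the glutathione transferase gene Gsta3 by 2.54 ± 0.193, the decoy receptor gene Il13ra2 by 2.4 ± 0.163 and Rasd2, which encodes a small GTPase, by 2.48 ± 0.106. Rp1 and Btbd11 completed the 15 largest, at 2.03 and 1.99. Adjusted p-values of the 15 reached at most 0.000878.

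Among genes measured by a probe set with 1 symbol, the largest falls were in matrix, secreted and membrane proteins. Dermatopontin (Dpt), a matrix protein that binds decorin, measured 9.63 and 9.78 on the VE arrays and 2.94 and 2.9 on the VE+N arrays. The VE+N arrays were at a level close to the N arrays (3.74 and 3.45), and the fall was 6.78 ± 0.125 log2 units, 110.0-fold (adjusted p = 3.92e-07). Ceruloplasmin (Cp), a copper-carrying ferroxidase, measured 9.08 and 8.7 on the VE arrays and 3.68 and 3.77 on the VE+N arrays, a fall of 5.16 ± 0.156 (adjusted p = 3.72e-06). The N arrays lay between the lines, at 7.46 and 7.77. Type III collagen (Col3a1) fell by 4.84 ± 0.222, from 10.29 and 10.53 to 5.95 and 5.19, and neprilysin (Mme), a peptide-degrading membrane enzyme, by 4.54 ± 0.163. The pericyte receptor gene Pdgfrb measured 8.3 and 8.67 on the VE arrays and 4.19 and 4.18 on the VE+N arrays, a fall of 4.29 ± 0.14, and it was the only one of the 15 largest falls whose N arrays, at 8.94 and 9.13, lay above both lines. Matn2, Edil3 and the heparan sulphate proteoglycan gene Gpc4, which encode matrix or cell surface proteins, fell by 4.51, 4.09 and 3.91.

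Several of the 15 largest falls came with a wide spread between the VE arrays. The serum amyloid gene Saa3 measured 9.0 and 7.38 on the VE arrays and 3.77 and 3.59 on the VE+N arrays. Both VE arrays were still well above both VE+N arrays, and the fall was 4.51 ± 0.432 (adjusted p = 0.000529). Such spreads were also seen in the chemokine gene Cxcl15 (8.65 and 7.4), the stromelysin gene Mmp3 (7.94 and 6.97), the transcription cofactor gene Vgll3 (8.56 and 7.36) and the protease inhibitor gene Serpina3n (8.49 and 7.62). VE replicate 1 was the higher array in each. These genes fell by 4.96 ± 0.338, 4.42 ± 0.267, 4.01 ± 0.341 and 4.5 ± 0.322. In 16 of the 30 genes with the largest rises and falls, the lower line was under its median gene, and signal over background was not examined, so these sizes are approximate.

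**Figure D2:**
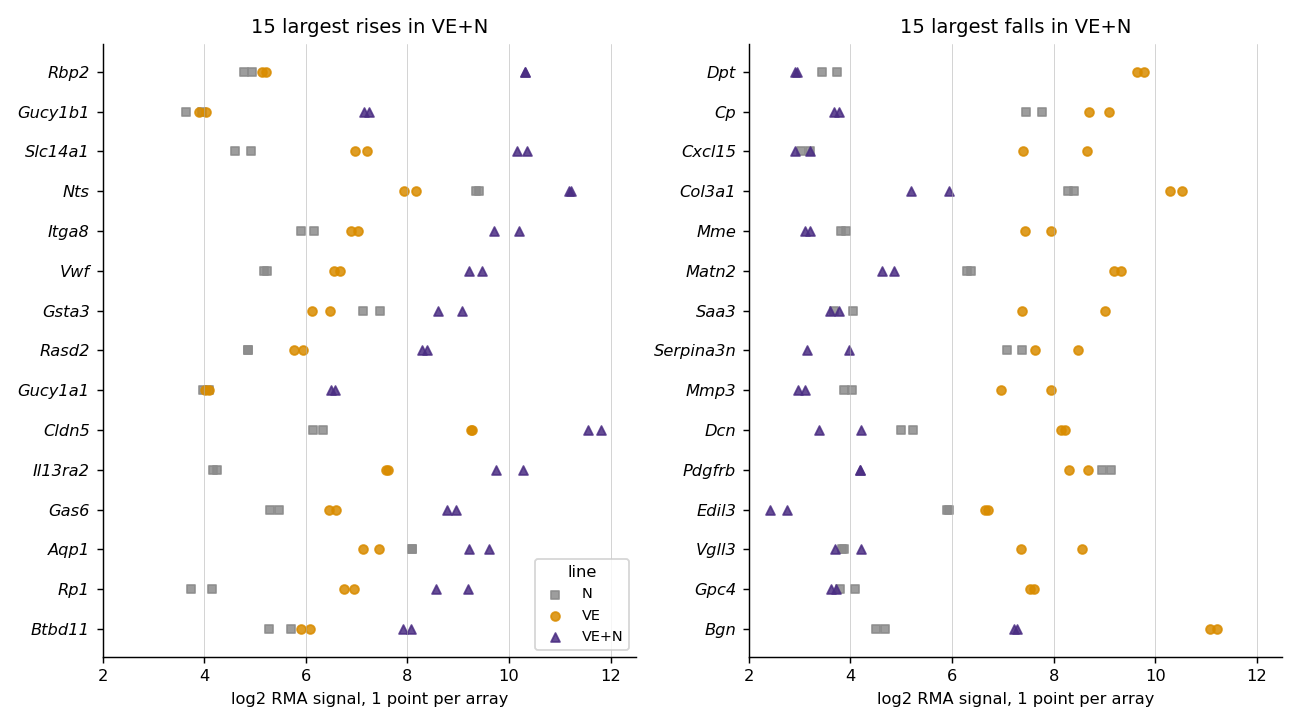
Log2 signal of the 15 genes with the largest rise (left) and the 15 with the largest fall (right) in VE+N against VE, 1 point per array, with the N arrays shown as squares. VE and VE+N points do not overlap in any gene, and in Saa3, Cxcl15, Vgll3, Mmp3 and Serpina3n the VE points lie farther apart than in Dpt or Bgn.

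Fibrillar matrix genes accounted for many of the deepest falls. Of 31 interstitial collagen genes 11 fell and 1 rose, with a median difference of −0.17 beside 0.029 over all genes. Type I collagen (Col1a1) measured 9.68 and 9.72 on the VE arrays and 6.39 and 5.99 on the VE+N arrays, and the N arrays, at 6.33 and 6.28, were level with VE+N. The collagen VI genes Col6a1 and Col6a3 fell by 3.64 ± 0.213 and 2.98 ± 0.111. Of 14 genes on the list of small leucine-rich proteoglycans, which also holds Dpt, 6 fell and 2 rose. Biglycan (Bgn) measured 11.06 and 11.22 on the VE arrays and 7.29 and 7.21 on the VE+N arrays and decorin (Dcn) 8.14 and 8.22 on the VE arrays and 3.38 and 4.21 on the VE+N arrays, falls of 3.89 ± 0.112 and 4.38 ± 0.235. Prelp, a proteoglycan that anchors basement membranes to connective tissue, went the other way, from 8.41 and 8.26 to 10.2 and 10.15, a rise of 1.84 ± 0.113. Bgn and Prelp were both lower on the N arrays, at 4.49 and 4.67 and 5.22 and 5.02.

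Falls extended to the other classes of matrix proteins. Of 25 basement membrane genes 6 fell and 0 rose, among them the laminin chain gene Lamb1 (−1.34), fibulin-2 (Fbln2, −1.34), Col15a1 (−1.32) and nidogen-2 (Nid2, −1.19). Of 29 matricellular and elastic fibre genes 11 fell and 2 rose. Periostin (Postn) measured 7.33 and 7.45 on the VE arrays and 3.58 and 3.61 on the VE+N arrays, with the N arrays between at 5.91 and 6.28, and fell by 3.8 ± 0.135. The thrombospondin gene Thbs1 fell by 2.73 ± 0.186 and tenascin C (Tnc) by 1.73 ± 0.151. Of 29 matrix proteases and inhibitors 9 fell and 2 rose. The gelatinase genes Mmp2 and Mmp9 fell by 1.91 ± 0.129 and 1.38 ± 0.131, and Mmp19 by 1.49 ± 0.127. Only 4 protease genes were called lower without VE replicate 1.

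Some markers of fibroblasts and mural cells fell as well, and the fibroblast list shares members with the matrix lists. Of 15 fibroblast and mesenchymal markers 9 fell and 0 rose, with a median of −1.0, and their summed linear signal was 4038 and 4449 on the VE arrays against 615 and 519.6 on the VE+N arrays. On the N arrays the sum was 808 and 846. The called members were mostly matrix genes already given, together with the receptor gene Pdgfra, which measured 8.06 and 8.18 on the VE arrays and 5.21 and 5.3 on the VE+N arrays. On this list 8 of the 15 markers lay above the median gene in VE and 4 in VE+N. Some other members of this list were low in both lines, and those given here were chosen after their values were seen. Tcf21 measured 3.19 and 3.44 on the VE arrays and 3.35 and 3.37 on the VE+N arrays. Pi16 measured 4.6 and 4.49 on the VE arrays and 4.66 and 4.34 on the VE+N arrays. Thy1 measured 4.98 and 5.11 on the VE arrays and 5.06 and 4.84 on the VE+N arrays. They do not stand for the list, whose called members all fell. Of 18 mural cell and smooth muscle markers 3 fell, 1 rose and 14 were not called, with a median of −0.06. Their summed signal was 1437 and 1505 on the VE arrays against 904 and 841 on the VE+N arrays. Besides Pdgfrb the called genes were the receptor gene Notch3 (−2.44), smooth muscle actin (Acta2, −1.19) and the aminopeptidase gene Anpep, which rose by 1.67 ± 0.107. The pericyte marker Rgs5, also chosen after its value was seen, measured 2.92 and 2.88 on the VE arrays and 2.88 and 2.78 on the VE+N arrays. The part of these cell types in the matrix falls was not tested.

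Some factors of mesenchymal change fell. Of 19 genes on the list of endothelial-mesenchymal transition factors 7 fell and 0 rose, while the list median was −0.07 and, with arrays centred on their medians, 0.01. Prrx1 measured 6.09 and 6.42 on the VE arrays and 4.35 and 4.08 on the VE+N arrays and fell by 2.04 ± 0.142. Sox9 fell by 1.67 ± 0.144 and fibronectin (Fn1), the matrix glycoprotein of the list, by 1.52 ± 0.0961. Twist1 measured 7.28 and 7.53 on the VE arrays and 5.64 and 4.21 on the VE+N arrays, with the VE+N arrays far apart, and its fall of 2.48 ± 0.383 (adjusted p = 0.00516) was not called without VE replicate 2.

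Genes of cell division fell in VE+N. All 39 measured genes of mitosis and the spindle fell, with a median of −1.1 and a range from −1.54 to −0.74, and 30 of them by over 2-fold. The proliferation antigen gene Mki67 measured 9.38 and 9.67 on the VE arrays and 8.0 and 7.97 on the VE+N arrays, and the N arrays, at 7.94 and 7.75, were close to VE+N. It fell by 1.54 ± 0.128 (adjusted p = 0.000265). The cytokinesis exchange factor gene Ect2 measured 8.25 and 8.52 on the VE arrays and 6.92 and 6.82 on the VE+N arrays and fell by 1.51 ± 0.119. The kinase gene Melk fell by 1.5 ± 0.103 and cyclin A2 (Ccna2) by 1.4 ± 0.139. Between 35 and 39 of the 39 remained called with each VE or VE+N array left out in turn, and 10 with the methods' analysis of variance after Benjamini-Hochberg adjustment.

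Most DNA replication genes fell too. Of 39 measured members 30 fell and 0 rose, with a median of −0.84, and 19 fell without VE replicate 1. Cyclin E1 (Ccne1), which drives entry into S phase, measured 8.31 and 8.27 on the VE arrays and 7.1 and 6.54 on the VE+N arrays. Both VE+N arrays were lower than both VE arrays, though they lay well apart, and the fall was 1.48 ± 0.172. The DNA ligase gene Lig1, the chromatin assembly gene Chaf1b and the repressor gene E2f8 fell by 1.32 ± 0.135, 1.28 ± 0.112 and 1.26 ± 0.12. Of 17 G1 cyclins and inhibitors of cyclin-dependent kinases 4 fell and 1 rose. Cdkn2a, the locus of p16 and p19Arf, fell by 1.48 ± 0.115, from 8.19 and 8.18 to 6.84 and 6.58, and Rbl1, which encodes the pocket protein p107, by 0.69 ± 0.0957. Cyclin D1 (Ccnd1) fell by 0.63 ± 0.109, a call lost without VE+N replicate 2 and without VE replicate 2, which left 2 falls on the G1 list.

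Since the mitosis genes moved as a body, their promoters are shown. Mitotic genes are known to carry a cell cycle homology region, TTTGAA, which recruits the DREAM and MuvB complexes. It was searched on both strands in RefSeq windows of 300 bases on GRCm38.p6, from 250 before to 50 after each start. It occurred in 24 of the 31 mitosis genes with a window (77.4%), against 17.3% of 15614 measured genes with a window. All 31 were called, so called and not called members could not be compared, and the share describes the list and not its fall. A match is a description and not a binding site. The motif was chosen after the genes' values were seen. The stretches below run 5′ to 3′ on the gene's strand from −150 to −21, with matches in capitals, for Mki67 (chr7:135716400-135716529, minus strand) and Ect2 (chr3:27153899-27154028, minus strand).
Mki67: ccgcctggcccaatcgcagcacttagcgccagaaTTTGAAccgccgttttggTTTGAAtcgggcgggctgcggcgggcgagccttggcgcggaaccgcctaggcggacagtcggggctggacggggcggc
Ect2: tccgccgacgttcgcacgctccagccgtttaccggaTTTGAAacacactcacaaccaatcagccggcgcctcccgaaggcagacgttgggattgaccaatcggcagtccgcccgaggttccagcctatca
The Mki67 stretch holds 2 matches, starting at −116 and −98, and the Ect2 stretch holds 1, starting at −114.

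Most targets of p53 rose. Of 21 measured members 12 rose and 1 fell, with a median of 0.63. Btg2, an antiproliferative gene, measured 8.93 and 8.91 on the VE arrays and 10.14 and 10.04 on the VE+N arrays and rose by 1.17 ± 0.112 (adjusted p = 0.000524). Eda2r, a death domain receptor of the tumour necrosis factor family, rose by 1.17 ± 0.16 and Trp53inp1 by 1.02 ± 0.108. The sestrin gene Sesn1, on chromosome 10, rose by 0.97 ± 0.129. The N arrays lay below both lines in all of these genes. Of the members, 4 are on chromosome 10, where 3 rose. With chromosomes 4, 10 and 18 left out, 7 of the 14 members still tested rose and 0 fell.

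**Figure D3:**
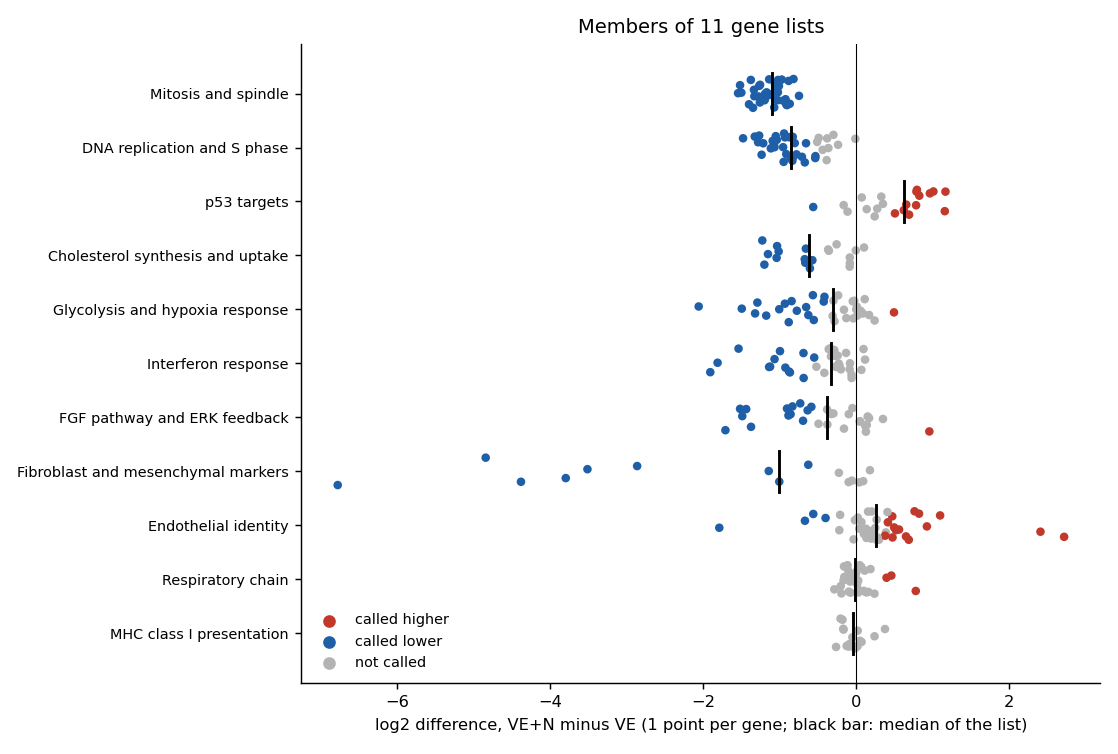
Log2 difference, VE+N minus VE, of each measured member of 11 gene lists (1 point per gene), coloured by whether it was called higher, lower or not called. Black bars mark list medians. All mitosis genes lie left of 0, p53 targets mostly right of it, and respiratory chain and MHC class I genes around it.

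More endothelial identity genes rose than fell. Of 42 endothelial identity genes 15 rose and 4 fell, with a median of 0.26. After Vwf and Cldn5, Clec14a, an endothelial lectin-like receptor, measured 8.47 and 8.45 on the VE arrays and 9.44 and 9.69 on the VE+N arrays and rose by 1.1 ± 0.122, with the N arrays between at 9.08 and 9.26. Ptprb, on chromosome 10, encodes the phosphatase that associates with VE-cadherin. It measured 10.84 and 10.95 on the VE arrays and 11.62 and 11.82 on the VE+N arrays and rose by 0.83 ± 0.112. The largest fall was in Cyyr1, from 6.48 and 6.36 to 4.91 and 4.36 (−1.79 ± 0.177). Most rises were under 2-fold, and 7 rose and 2 fell with VE replicate 1 left out, 8 and 2 with VE replicate 2 left out, and 9 and 3 with VE+N replicate 2 left out. Of 8 lymphatic endothelial markers 0 rose and 1 fell.

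Transcription factors on the list of endothelial and developmental factors divided. Of 36 measured members 7 rose and 5 fell. Nr2f2 (COUP-TFII), which specifies veins, measured 10.44 and 10.51 on the VE arrays and 11.11 and 11.22 on the VE+N arrays and rose by 0.69 ± 0.0992. Hhex, a homeobox factor of early endothelium, rose by 0.73 ± 0.103. Ets1, an activator of many endothelial genes, fell by 0.67 ± 0.0937, from 9.84 and 9.83 to 9.16 and 9.18. Gata3 fell by 1.02 ± 0.158, a call lost without VE replicate 1. Only 2 members rose and 1 fell with VE replicate 1 left out, and 2 and 2 with VE replicate 2 left out. Leaving out VE+N replicate 1 gave 3 and 3, and leaving out VE+N replicate 2 gave 3 and 2.

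Genes at the interface with blood changed in both directions. Of 23 genes of haemostasis and fibrinolysis 7 rose and 2 fell. Tissue factor (F3), which starts coagulation, measured 6.94 and 7.26 on the VE arrays and 3.75 and 4.03 on the VE+N arrays and fell by 3.21 ± 0.143 (adjusted p = 1.34e-05). Entpd1, which breaks down extracellular ATP and ADP, measured 5.16 and 5.07 on the VE arrays and 6.4 and 6.64 on the VE+N arrays and rose by 1.41 ± 0.115, while the N arrays were far higher, with a mean of 9.98. Of 32 genes of nitric oxide, prostaglandin and vasoactive peptides 5 rose and 3 fell. Besides the cyclase subunits, Pde2a, a phosphodiesterase stimulated by cGMP, rose by 1.11 ± 0.118. Ddah1, which degrades inhibitors of nitric oxide synthase, fell by 2.06 ± 0.173, from 7.4 and 7.5 to 5.67 and 5.11. Rises in haemostasis numbered 3, 4 and 4, and those in nitric oxide genes 3 each, without VE replicate 1, VE replicate 2 or VE+N replicate 2.

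Most junction genes were not called. Of 34 tight junction genes 5 rose and 1 fell, with a median of 0.05. Claudin-5 (Cldn5), given above, had the largest rise on this list, at 2.42 ± 0.125. Prkcz, the atypical kinase of the polarity complex, measured 5.07 and 5.14 on the VE arrays and 6.85 and 7.12 on the VE+N arrays and rose by 1.88 ± 0.14 (adjusted p = 0.000155). The remaining rises were under 2-fold, and 2, 3 and 3 genes rose without VE replicate 1, VE replicate 2 or VE+N replicate 2. Of 25 genes of the adherens junction and its catenins 2 rose and 3 fell. Beta-catenin (Ctnnb1), chosen after its values were seen, measured 11.5 and 11.45 on the VE arrays and 11.54 and 11.61 on the VE+N arrays, a difference of 0.1 that did not pass (adjusted p = 0.607). Plakophilin-1 (Pkp1) fell by 1.17 ± 0.124. Plakoglobin (Jup), a catenin of both cadherins, measured 10.75 and 10.54 on the VE arrays and 10.26 and 10.11 on the VE+N arrays, and its difference of −0.46 ± 0.115 was called (adjusted p = 0.0429) but lost with any of the 6 arrays left out. With VE replicate 1, VE replicate 2 or VE+N replicate 1 left out, 1 adherens gene rose and 1 fell, and with VE+N replicate 2 left out 1 and 2. None of 11 gap junction and pannexin genes was called in limma, with differences between −0.22 and 0.27, and 0 had an unadjusted p below 0.05.

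Single genes of other adhesion families changed strongly. Of 32 further cadherins and protocadherins 3 fell and 1 rose. Protocadherin 18 (Pcdh18) measured 7.0 and 7.5 on the VE arrays and 3.9 and 3.49 on the VE+N arrays, with the N arrays between at 5.51 and 5.96, and fell by 3.55 ± 0.218. Pcdh19 fell by 1.95 ± 0.185, and Celsr2, a planar polarity cadherin, rose by 0.8 ± 0.101. Of 21 integrin genes 5 fell and 2 rose. Itgb5, the beta chain that pairs with the alpha V chain, measured 7.76 and 7.81 on the VE arrays and 5.59 and 5.72 on the VE+N arrays, with the N arrays level with VE at 7.79 and 7.84, and fell by 2.13 ± 0.1. The laminin receptor chain gene Itga7, on chromosome 10, rose by 0.98 ± 0.0986. Of 23 immunoglobulin and selectin adhesion molecules 4 fell and 4 rose. Neural cell adhesion molecule (Ncam1) measured 7.81 and 7.98 on the VE arrays and 5.12 and 5.14 on the VE+N arrays and fell by 2.76 ± 0.104. The leukocyte-binding gene Vcam1 fell by 2.66 ± 0.158 and the hyaluronan receptor gene Cd44 by 1.83 ± 0.112. Only 3 integrins fell without VE replicate 1 or VE replicate 2, and 0 immunoglobulin members rose without those arrays or VE+N replicate 2.

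Signalling by fibroblast growth factors was covered by ligands, receptors, ETS factors and feedback inhibitors. Of 31 members 14 fell and 1 rose, with a median of −0.38. Etv1 measured 6.93 and 7.2 on the VE arrays and 5.38 and 5.34 on the VE+N arrays, with the N arrays above both at 7.98 and 8.18, and fell by 1.71 ± 0.126 (adjusted p = 0.00015). Dusp6, the phosphatase that switches off ERK, measured 10.46 and 10.14 on the VE arrays and 8.71 and 8.86 on the VE+N arrays and fell by 1.51 ± 0.129. Etv5 fell by 1.49 ± 0.113 and the immediate early factor Egr1 by 1.43 ± 0.11. Between 13 and 15 members fell with each VE or VE+N array left out. Of 27 immediate early genes 10 fell and 3 rose, with the AP-1 subunit gene Fosl2 at −1.0 ± 0.117 and Myc at −1.37 ± 0.108. Among immediate early genes 5 fell and 1 rose without VE replicate 1, and likewise without VE replicate 2.

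Several growth factor receptors, ligands and binding proteins fell. Of 12 PDGF and Kit receptors and ligands 7 fell and 0 rose, with a median of −0.56. Beside Pdgfrb and Pdgfra, Kit measured 5.92 and 5.97 on the VE arrays and 5.07 and 5.19 on the VE+N arrays and fell by 0.82 ± 0.0992, while the N arrays were far higher at 9.73 and 9.76. Csf1, a macrophage growth factor, fell by 0.85 ± 0.112. Of 18 insulin-like growth factors, receptors and binding proteins 10 fell and 2 rose, with a median of −0.49. The receptor gene Igf1r measured 6.1 and 6.35 on the VE arrays and 4.5 and 4.49 on the VE+N arrays and its adaptor gene Irs1 6.52 and 6.38 on the VE arrays and 4.8 and 4.72 on the VE+N arrays, falls of 1.73 ± 0.113 and 1.69 ± 0.102. Igfbp7 fell by 1.63 ± 0.171. Of this list 6 fell without VE replicate 1 and 5 without VE replicate 2, and 0 rose in either or without VE+N replicate 2.

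On the lists of angiogenic pathways, changes went both ways. Of 35 VEGF pathway and tip cell genes 13 fell and 4 rose, with a median of −0.23. The growth factor gene Vegfd measured 7.53 and 7.25 on the VE arrays and 5.69 and 5.58 on the VE+N arrays and fell by 1.76 ± 0.132. Cxcl12, the ligand of Cxcr4, measured 8.38 and 8.14 on the VE arrays and 5.4 and 5.35 on the VE+N arrays and fell by 2.89 ± 0.112. Igfbp3 measured 8.9 and 7.86 on the VE arrays and 6.25 and 6.23 on the VE+N arrays, with VE replicate 1 the higher, and fell by 2.14 ± 0.28. Without VE replicate 1, 8 members fell and 0 rose, and 0 rose without VE replicate 2 or VE+N replicate 2. In the angiopoietin and Tie system 1 of 9 rose (Ptprb) and 1 fell, Angpt1, which activates Tie2, from 5.81 and 5.77 to 3.34 and 3.28 (−2.48 ± 0.154). Of 30 Notch pathway and arterial genes 9 fell and 4 rose. The ligand gene Dll4 measured 7.92 and 7.51 on the VE arrays and 6.28 and 6.38 on the VE+N arrays and fell by 1.38 ± 0.141, the receptor gene Notch2 fell by 1.51 ± 0.128 and the feedback gene Nrarp by 1.05 ± 0.12. The N arrays exceeded both lines in Dll4 (9.21 and 9.18) and Nrarp (9.26 and 9.29). Leaving out VE replicate 2 reduced the 4 rises among Notch and arterial genes to 1, and leaving out VE+N replicate 2 to 2.

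Genes of morphogen pathways fell in part. Of 34 TGF-beta and BMP genes 8 fell and 3 rose, with a median of −0.06 that became 0.03 with centred arrays. The BMP antagonist gene Grem1 measured 8.02 and 7.71 on the VE arrays and 4.7 and 4.84 on the VE+N arrays and fell by 3.1 ± 0.131, and the receptor gene Bmpr1a fell by 1.9 ± 0.145. Id2, a helix-loop-helix inhibitor induced by BMPs, measured 7.2 and 7.16 on the VE arrays and 8.7 and 8.3 on the VE+N arrays and rose by 1.32 ± 0.151. Of 31 Wnt and beta-catenin targets 7 fell and 1 rose, led by the Wnt inhibitor gene Apcdd1 at −2.33 ± 0.216. Of 23 YAP and TAZ targets 8 fell and 1 rose, with a median of −0.02, or 0.07 with centred arrays. The receptor kinase gene Axl measured 8.98 and 9.25 on the VE arrays and 6.97 and 6.71 on the VE+N arrays and fell by 2.27 ± 0.138, and the matricellular gene Ccn1 by 1.59 ± 0.157. Falls of TGF-beta genes numbered 5 without VE replicate 1, VE replicate 2 or VE+N replicate 2. Those of Wnt genes numbered 3 without VE+N replicate 2, and those of YAP targets 5 without VE replicate 2, VE+N replicate 1 or VE+N replicate 2.

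Among guidance molecules more genes fell than rose, and most were not called. Of 35 semaphorins, plexins, Slit and Robo genes and netrins 13 fell and 2 rose, and their median of −0.06 became 0.03 with centred arrays. Sema5a measured 6.8 and 7.18 on the VE arrays and 4.25 and 3.93 on the VE+N arrays and fell by 2.9 ± 0.157. Robo1, a Slit receptor, measured 5.42 and 5.33 on the VE arrays and 4.03 and 4.04 on the VE+N arrays, against 9.64 and 9.61 on the N arrays, and fell by 1.34 ± 0.0959. Of 18 Eph receptors and ephrins 7 fell and 2 rose. Epha7 fell by 2.44 ± 0.158, from 5.74 and 5.5 to 3.38 and 2.99, and Ephb1 rose by 1.13 ± 0.109, from 5.3 and 5.38 to 6.37 and 6.57. Guidance falls numbered 5, 6 and 8 without VE replicate 1, VE replicate 2 or VE+N replicate 1, and Eph falls 4 without VE replicate 1.

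Interferon genes were called only as lower. Of 34 measured members 13 fell and 0 rose, with a median of −0.33, and 31 differences were below 0. Rsad2 (viperin), an antiviral enzyme, measured 9.01 and 9.02 on the VE arrays and 7.05 and 7.35 on the VE+N arrays, with the N arrays above both at 9.68 and 9.9. It fell by 1.81 ± 0.132 (adjusted p = 0.000142). Its neighbour Cmpk2, a mitochondrial nucleotide kinase, fell by 1.9 ± 0.116 and Oasl2 by 1.53 ± 0.162. The guanylate-binding protein gene Gbp3 fell by 1.13 ± 0.177, a call lost without VE replicate 1. Falls numbered 5 without VE replicate 1 and 7 without VE replicate 2. None of 18 genes of MHC class I presentation, which interferons also induce, was called in limma, with differences between −0.26 and 0.38, and 1 had an unadjusted p below 0.05.

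Interferon-stimulated response elements were searched in the same windows, on both strands, as 2 copies of GAAA with 2 bases of any kind between them. They occurred in 13 of the 24 interferon genes with a window (54.2%), in 5 of 10 called lower and 8 of 14 not called, against 3.89% of all measured genes with a window. The motif thus did not separate the genes that fell from those not called. This motif too was chosen after values were seen. The stretches of Rsad2 (chr12:26456473-26456602, minus strand) and Gbp3 (chr3:142559894-142560023, plus strand) run from −150 to −21 on the gene's strand, and matches, here on the opposite strand, are in capitals.
Rsad2: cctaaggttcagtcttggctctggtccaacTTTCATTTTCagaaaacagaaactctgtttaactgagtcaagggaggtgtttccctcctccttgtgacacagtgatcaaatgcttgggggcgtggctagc
Gbp3: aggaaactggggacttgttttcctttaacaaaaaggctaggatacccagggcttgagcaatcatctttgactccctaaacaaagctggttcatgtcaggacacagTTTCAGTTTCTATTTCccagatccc
The Rsad2 match starts at −120, and the 2 overlapping Gbp3 matches start at −45 and −39.

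Other immune genes were lower in part. Of 37 genes on the list of inflammatory chemokines and cytokines, which also holds the adhesion gene Vcam1, 9 fell and 1 rose. The neutrophil chemokine gene Cxcl5 measured 7.29 and 6.54 on the VE arrays and 4.07 and 4.04 on the VE+N arrays and fell by 2.86 ± 0.217, and the monocyte chemokine gene Ccl2 measured 7.4 and 7.06 on the VE arrays and 5.38 and 5.63 on the VE+N arrays and fell by 1.73 ± 0.164. Of 30 genes on the list of acute phase and complement genes, which also holds F3, 7 fell and 2 rose. Lipocalin 2 (Lcn2) measured 9.84 and 8.36 on the VE arrays and 6.18 and 6.53 on the VE+N arrays and fell by 2.74 ± 0.393, and Steap4 fell by 3.35 ± 0.304, both with VE replicate 1 the higher. Leukocyte markers lay mostly low: 1 of 17 was above the median gene in each line. That gene, Cd68, of lysosomes, fell by 1.31 ± 0.138, from 10.19 and 9.8 to 8.62 and 8.74, and was highest on the N arrays at 11.55 and 11.56. The summed signal of the leukocyte markers was 1417 and 1127 on the VE arrays against 638 and 656 on the VE+N arrays, which is largely Cd68. Its part in the immune falls was not tested.

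Most sterol genes fell. Of 20 measured genes of cholesterol synthesis and uptake 12 fell and 0 rose, with a median of −0.61. Lanosterol synthase (Lss) measured 6.12 and 6.38 on the VE arrays and 4.93 and 5.18 on the VE+N arrays and fell by 1.2 ± 0.13 (adjusted p = 0.000979). The sterol demethylase gene Cyp51 fell by 1.22 ± 0.175, squalene epoxidase (Sqle) by 1.15 ± 0.127 and Srebf2, the transcription factor that controls the pathway, by 1.04 ± 0.115. The falls numbered 6 without VE replicate 2, 7 without VE+N replicate 1 and 0 with the methods' analysis of variance after Benjamini-Hochberg adjustment, although the list median was between −0.75 and −0.43 with each VE or VE+N array left out. The sterol regulatory element TCACNCCAC, searched on both strands, occurred in 1 of 16 cholesterol genes with a window (6.25%) and in 1.40% of all. That gene was Hmgcs1, the synthase at the start of the pathway, which is shown for this match and was chosen after its value was seen. It measured 8.82 and 9.18 on the VE arrays and 8.19 and 8.51 on the VE+N arrays and fell by 0.65 ± 0.153 (adjusted p = 0.0335). Its stretch from −150 to −21 (chr13:119690201-119690330, plus strand) has the match in capitals, starting at −137.
Hmgcs1: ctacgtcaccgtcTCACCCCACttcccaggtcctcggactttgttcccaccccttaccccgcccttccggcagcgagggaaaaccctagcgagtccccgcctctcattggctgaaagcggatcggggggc

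Many genes of glucose use and hypoxia fell. Of 34 glycolysis and hypoxia genes 16 fell and 1 rose, with a median of −0.3. The lactate exporter gene Slc16a3 measured 7.52 and 7.08 on the VE arrays and 5.32 and 5.15 on the VE+N arrays and fell by 2.06 ± 0.156 (adjusted p = 0.00017). Ero1a, an oxidase of the endoplasmic reticulum, fell by 1.49 ± 0.123, the phosphofructokinase gene Pfkp by 1.32 ± 0.123, and hexokinase 2 (Hk2) fell by 1.29 ± 0.141. Falls numbered 11 to 13 with each VE or VE+N array left out, and 0 with the methods' analysis of variance after adjustment. Among 14 reference genes the glycolytic gene Pgk1 was the only one called, at −0.65 ± 0.103, and its call was lost without VE replicate 2. Respiratory chain genes differed little as a group: 3 of 37 rose and 0 fell (8.11% called, beside 10.1% of all genes), with a median of −0.01. The complex I subunit gene Ndufa8 rose by 0.79 ± 0.106. Only 1 member rose with any VE or VE+N array left out.

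Lipid, amino acid and redox genes gave single large changes. Of 31 genes of fatty acid synthesis, uptake and binding 8 fell and 1 rose. The scavenger receptor gene Cd36 measured 5.72 and 5.18 on the VE arrays and 4.02 and 3.69 on the VE+N arrays and fell by 1.59 ± 0.186, the transporter gene Slc27a1 fell by 1.55 ± 0.12, and lipoprotein lipase (Lpl) rose by 1.2 ± 0.105, from 4.5 and 4.67 to 5.73 and 5.83. Of 30 genes of the unfolded protein and amino acid stress response 10 fell and 2 rose, with the amino acid transporter genes Slc7a5 at −1.23 ± 0.0999 and Slc7a11 at −0.96 ± 0.147, the latter not called without VE replicate 2. Of 33 glutathione and oxidant defence genes 3 fell and 1 rose, so that 12.1% were called, near the 10.1% of all genes. Gsta3 measured 6.47 and 6.12 on the VE arrays and 8.61 and 9.07 on the VE+N arrays and Mgst2, which encodes a microsomal transferase, 6.75 and 6.88 on the VE arrays and 5.17 and 5.28 on the VE+N arrays. Gsta3 has close copies in its family, so its probe set may not be specific to it. Fatty acid falls numbered 4, 3 and 5 without VE replicate 1, VE replicate 2 or VE+N replicate 2, and stress response falls 6 without VE replicate 1 and 3 without VE replicate 2.

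**Figure D4:**
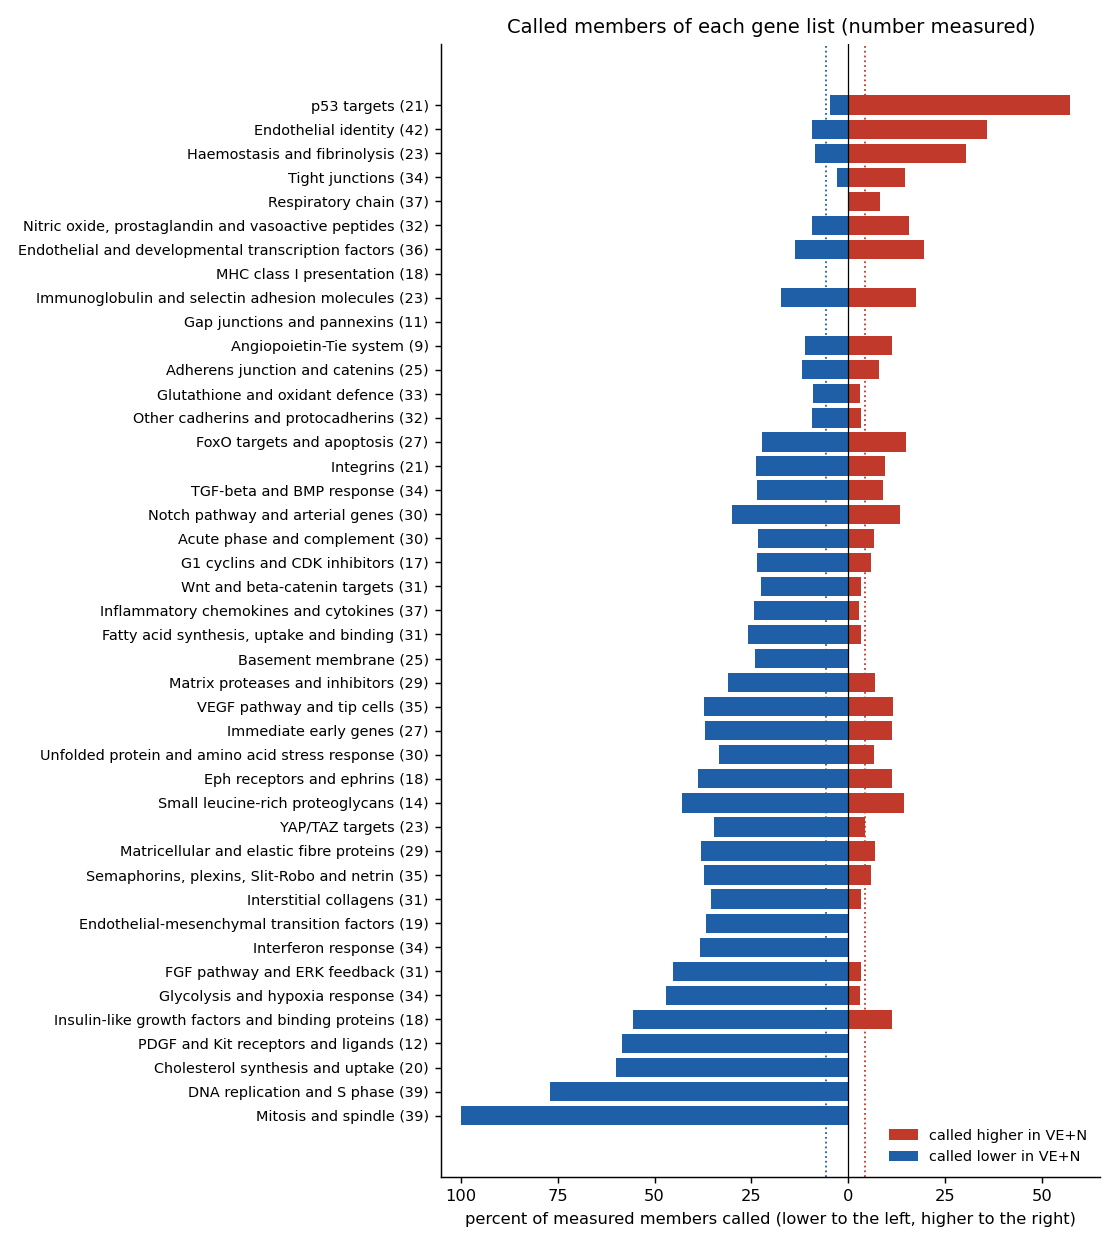
Percent of the measured members of each gene list called lower (blue, to the left) and higher (red, to the right) in VE+N, with the number measured after each name. Lists of markers of other cell types, lymphatic endothelium included, and the reference genes are not shown. Dotted lines mark the share over all genes, 5.84% lower and 4.29% higher. The mitosis and replication lists reach farthest to the left, followed by the cholesterol list and the PDGF and Kit list. The p53 targets and endothelial identity genes reach farthest to the right.

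The remaining lists gave single changes. Of 14 epithelial and 14 pluripotency markers 0 were called in limma, 1 of each had an unadjusted p below 0.05, and the methods' analysis of variance with Benjamini-Hochberg adjustment called 0 of these, of the gap junction genes and of the class I genes. Of 13 haematopoietic markers 1 fell (7.69% called, beside 10.1% of all genes), Runx1, at −1.06 ± 0.103. Of 14 neural markers 3 fell and 1 rose: the neurofilament gene Nefl measured 7.16 and 6.67 on the VE arrays and 8.35 and 8.36 on the VE+N arrays, with the N arrays above at 9.84 and 9.94, and the tubulin gene Tubb3 fell by 1.27 ± 0.167. Of 15 cardiac and skeletal muscle markers 1 fell, troponin T (Tnnt2), from 6.84 and 6.84 to 5.26 and 5.36 (−1.53 ± 0.0966), and 1 rose. Called members made up 13.3% of this list, beside 10.1% of all genes. Of 27 FoxO targets and apoptosis genes 4 rose and 6 fell, none over 2-fold. Trib2, a pseudokinase, fell by 0.89 ± 0.107, and among FoxO genes 1 rose and 4 fell with VE replicate 1 left out, 0 and 2 with VE replicate 2 left out, and 2 and 2 with VE+N replicate 2 left out.

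The N line shows where each change lies among the 3 lines. Of the 109 genes higher over 2-fold in VE+N, the N arrays were on average below both lines in 84, between them in 20 and above both in 5. Of the 393 lower genes, N lay between the lines in 260, below both in 71 and above both in 62, and it was nearer to VE+N in 256. Rises such as Cldn5 and Vwf therefore ordered the lines N, VE, VE+N, while falls such as Dpt and Col1a1 left VE alone at a high level. In Robo1, Kit and Dll4 the order was N, VE, VE+N downward. These positions are descriptions of means and were not tested.

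Called genes were not spread evenly over the chromosomes. Chromosome 10 holds 939 of the measured genes (4.71%) but 154 of the 855 higher calls (18.0%), against 37 of the 1165 lower ones (3.18%). Its median difference was 0.148 beside 0.029 over all genes. Of its higher genes 13 were over 2-fold, among them Nts and Btbd11, so that most were small rises. The median of chromosome 10 was 0.053 for VE minus N and 0.107 for VE+N minus N, where all genes gave −0.021 and −0.004. Next came chromosome 14, with 14.3% of its genes called (62 higher and 38 lower). The copy number of these chromosomes was not measured here.

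Probe sets without a single symbol were outside the gene test and were fitted with all probe sets. Of 12146 with no symbol 122 were called (1% of them), and of 1621 with several symbols 29 (1.79%). One probe set with no symbol, 10523717, had a mean of 11.15 in VE and 3.88 in VE+N, a fall of 7.27 ± 0.257, which exceeded that of Dpt.

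**Figure D5:**
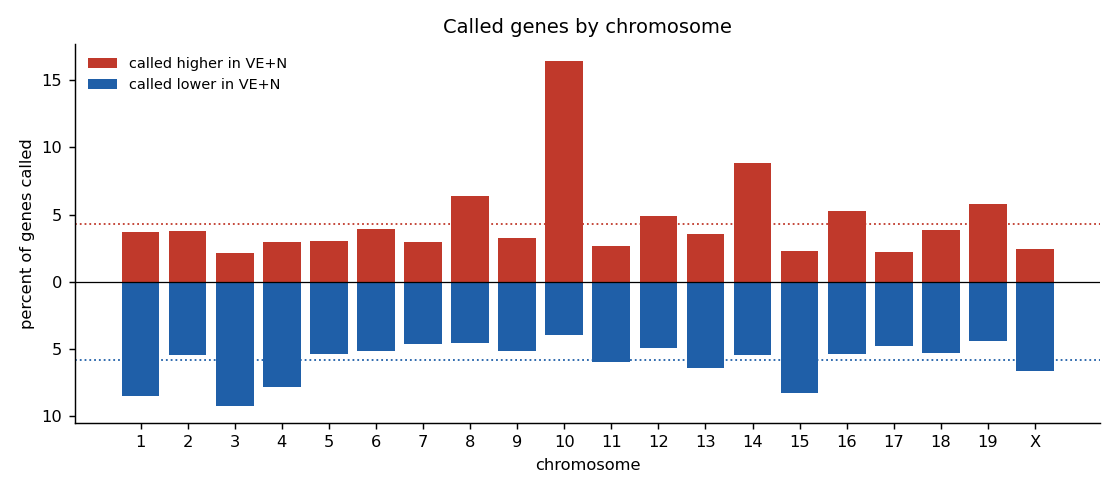
Percent of the measured genes of each chromosome called higher (red, upward) and lower (blue, downward) in VE+N. Dotted lines mark the shares over all genes, 4.29% higher and 5.84% lower. Chromosome 10 stands above the others in higher calls, followed by chromosome 14.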

How the data were processed

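Values are the log2 signals deposited by the authors, who per the submitters' processing notes used RMA in Partek 6.3. That algorithm subtracts a modelled background, quantile-normalises the probes and summarises them per probe set. Their range showed the scale to be log2. The genome build is not given in the sources used here. Of 35556 probe sets, 21789 carried 1 symbol, and the brightest probe set of each symbol was kept, which gave 19936 genes with no filter on signal. Lines were compared with limma 3.58.1 in R 4.3.3 over line means of all 6 arrays (4.89 prior and 3 residual degrees of freedom). Genes were called at a Benjamini-Hochberg adjusted p, taken over all genes, below 0.05. Values after ± are SE unless stated. In 20 simulations, noise was independent and normal with the fitted spread, with no array or line effects. Of genes raised by 1 log2 unit 99.4% were recovered, and 99.5% of those lowered, with 6.55% false calls. These rates are not the accuracy of the calls given above.

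The comparison and the 53 gene lists (1390 places, 1318 measured) were chosen with earlier results of these data known. Lists are described by counts and medians, with no test, and members without a measured row are not analysed here. Named genes are Cdh2, Cdh5, the 15 largest called rises and 15 largest falls over 2-fold, and up to 4 called members of each list with the largest difference. Predicted genes, pseudogenes and small RNAs were left out of the naming. Others are stated to be chosen after their values were seen. Promoter sequences are from RefSeq, GRCm38.p6. Replicate numbers did not pair the arrays: deviations of same-numbered arrays correlated at 0.0689 between VE and VE+N, −0.00504 between N and VE and 0.123 between N and VE+N.

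The alternatives were a fit on the 4 VE and VE+N arrays, a replicate block, median centring, renewed quantile normalisation, leaving out the dimmest 25% or 50%, a trended robust prior, array weights, the mean of a gene's probe sets, the methods' analysis of variance, a stricter adjusted p of 0.01, leaving out single arrays, treat against 1.5-fold, and removal of chromosomes 4, 10 and 18.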

Additional observations from a re-analysis of the deposited data

How the results depend on the processing

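The called total of 2020 (855 higher, 1165 lower) was 311 (118 and 193) with the methods' analysis of variance after Benjamini-Hochberg adjustment, 3996 (2147 and 1849) with its unadjusted p, 334 (68 and 266) with treat against 1.5-fold and 1045 (341 and 704) at adjusted p below 0.01. Higher calls were 1533 with median centring, 1428 without the dimmest 50% of genes and 1415 with a trended robust prior. With single arrays left out the total ranged from 966 to 2049, higher calls from 276 to 991 and lower calls from 669 to 1058. Genes over 2-fold, 502 in the main test, were 138 (31 and 107) with the analysis of variance and 334 (68 and 266) with treat. The Cdh2 difference of 0.83 was not called by treat (adjusted p = 0.626). A replicate block gave 2055 calls, 1895 of them shared with the main test, and 501 over 2-fold. The numbers did not pair the arrays. Median centring moved the median over all genes from 0.029 to 0.117. Of 176 called genes named besides the cadherins, 47 were called under every alternative in which they were tested and 150 with each array left out, and none reversed. The analysis of variance lost 123 of these calls, treat 60 and leaving out VE replicate 2 20 calls. Of 2120 counts of list members under alternatives, 494 moved by over 1.5 times. The number of arrays limits the precision, and signal over background was not examined.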

Other observations

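Several genes that changed over 2-fold stand next to one another in the gene order of RefSeq on GRCm38.p6, and these pairs were chosen after their values were seen. The receptor genes Osmr and Lifr, which bind cytokines of the interleukin-6 family and adjoin on chromosome 15, were both high in VE. Osmr measured 6.99 and 6.84 on the VE arrays and 4.14 and 3.92 on the VE+N arrays, and Lifr measured 7.24 and 7.21 on the VE arrays and 4.6 and 4.8 on the VE+N arrays. All 4 VE values were above all 4 VE+N values, and the falls were 2.89 ± 0.122 and 2.52 ± 0.114. The metallothionein genes Mt2 and Mt1, of metal binding, fell by 2.82 ± 0.166 and 1.62 ± 0.129 on chromosome 8. On chromosome 1, Atp1b1, a sodium pump subunit, adjoins Dpt and fell by 2.55 ± 0.12. On chromosome 19 the retinaldehyde dehydrogenase gene Aldh1a1 and its near copy Aldh1a7 fell by 1.33 ± 0.121 and 2.88 ± 0.273, and their probes may share signal. On chromosome 5 the neighbours Hgf, a growth factor gene, Sema3c and Cd36 fell by 1.65 ± 0.199, 1.04 ± 0.162 and 1.59 ± 0.186. The Sema3c call was lost without VE replicate 1.

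Pairs that rose were fewer. The guanylate cyclase genes Gucy1b1 and Gucy1a1, given above, adjoin on chromosome 3 and rose by 3.23 and 2.47. Nts and Rassf9 on chromosome 10 rose by 3.15 ± 0.112 and 1.23 ± 0.201, and the stress ligand genes H60b and Raet1d by 1.61 ± 0.133 and 1.1 ± 0.128. These ligands of the NKG2D receptor belong to a family of near copies, so their probe sets may share signal.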
